A study of Homo sapiens with 6 samples.

Results

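The 8 genes described here encode the plasma-membrane proteins MARCKS and MARCKSL1 and 6 isoforms of protein kinase C (PKC), the kinase family that phosphorylates them, namely PRKCA, PRKCD, PRKCE, PRKCI, PRKCZ and PRKCQ. They were taken by symbol from a table of 63677 genes, and all 8 passed the filter on low counts, as did 22331 genes in all. The set was picked with the fold changes of these libraries in view, in particular the low MARCKS level after siRAB3IP, so the siRAB3IP comparisons are given as a description, without p-values for these 8 genes. MARCKS (ENSG00000155130) was the only one of the 8 that carried a retired gene identifier, and its symbol comes from the authors' deposited table.

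The cells were HEK293, a human embryonic kidney line transformed with adenovirus DNA. All 3 groups were transfected with siRNA by Lipofectamine RNAiMAX and collected 48 hours later, and polyadenylated RNA was sequenced. The siRAB3IP and siCAMSAP1 groups received siRNA against a circular RNA of the RAB3IP or the CAMSAP1 gene, and the control group received the control labelled NTC. Each group had 2 libraries, and nothing in the labels says that they came from separate cultures, so the spread between them may be technical.

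Group names follow the names of the authors' deposited tables of results, whose 8 columns of normalized values each matched the count column assigned here. The titles of the sample records disagree with those tables for 4 of the 6 libraries. Under the grouping of the records, edgeR called 0 of 22331 genes at an adjusted p under 0.05 in each comparison. The number at an unadjusted p under 0.05 was then 350 for siRAB3IP against control, 441 for siCAMSAP1 against control and 471 for siRAB3IP against siCAMSAP1, and DESeq2 called 0, 1 and 0 genes. All values below are by the tables' names.

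Between 37379217 and 39637733 fragments per library were assigned to genes. Counts per gene do not separate a circular RNA from the linear mRNA of the same gene, so they do not check the knockdowns. RAB3IP was at 68.1 and 66.7 CPM (fragment counts scaled to library size) in siRAB3IP, 56.3 and 61.6 CPM in siCAMSAP1 and 57.5 and 62.5 CPM in control. CAMSAP1 was at 155.8 and 150.0 CPM in siRAB3IP, 139.4 and 138.2 CPM in siCAMSAP1 and 138.0 and 135.8 CPM in control. Of 6 markers known from HEK293, 5 were above 1 CPM (VIM, KRT8, KRT18, NEFL and CDH2) and NEFM was not. Their summed level was 1185 to 1499 CPM in siRAB3IP, 1445 to 1449 CPM in siCAMSAP1 and 1746 to 1821 CPM in control. The markers did not move together. KRT8 had 19935 and 24770 fragments in siRAB3IP and 34637 and 34201 in control, and KRT18 had 9095 and 10609 against 16925 and 16999. NEFL was also lower in siRAB3IP, while VIM (8845 and 12412 against 8056 and 10596 fragments) and CDH2 overlapped control. The part of these levels in the results below was not tested. Among markers of blood, endothelium and fibroblasts, HBB and PECAM1 were at 0 in every library and DCN did not exceed 0.0258 CPM. The endothelial list summed to 5.24 to 7.83 CPM in siRAB3IP, 3.58 to 3.94 CPM in siCAMSAP1 and 3.21 to 3.53 CPM in control, nearly all of it VWF. The fibroblast list summed to 13.2 to 19.0 CPM in siRAB3IP, 9.43 to 16.9 CPM in siCAMSAP1 and 12.4 to 20.0 CPM in control. In bulk RNA, fewer cells of a type and less RNA per cell cannot be told apart.

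MARCKS, the myristoylated alanine-rich C-kinase substrate, sits on the inner face of the plasma membrane, held there by its lipid anchor and by a basic stretch that binds the phospholipid PIP2. Phosphorylation of that stretch by PKC, or binding of calcium-loaded calmodulin, releases the protein into the cytosol and frees PIP2 and actin for other partners. MARCKSL1, also called MRP or MacMARCKS, is its smaller relative with the same anchor and basic stretch. Conventional PKC isoforms need calcium and diacylglycerol. Others need diacylglycerol alone, and atypical ones need neither and act in cell polarity.

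MARCKS had the lowest siRAB3IP fold change of the 8 genes. It was at 99.2 and 88.5 CPM in siRAB3IP, 237.9 and 220.8 CPM in siCAMSAP1 and 228.7 and 245.9 CPM in control. Both siRAB3IP libraries lay far below the other 4, and the siCAMSAP1 and control libraries overlapped. The group means were 93.8 ± 7.61 CPM in siRAB3IP, 229 ± 12.1 CPM in siCAMSAP1 and 237 ± 12.2 CPM in control (SD, n = 2 each). The log2 fold change was -1.34 ± 0.09 (SE) for siRAB3IP against control, which is a 2.53-fold lower level. Against siCAMSAP1 it was -1.29 ± 0.09, a 2.44-fold lower level. Of the 11784 genes averaging 5 CPM or more, 6 had a lower fold change against control, and 4 had a lower one against siCAMSAP1. Among all 22331 tested genes MARCKS ranked 211 from the lowest against control and 187 against siCAMSAP1. It was picked with its low siRAB3IP level known, so these ranks are no independent evidence. The authors' deposited table gives a log2 fold change of -1.33 ± 0.10 (SE) for MARCKS in siRAB3IP against control.

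In siCAMSAP1 against control, MARCKS differed by a log2 fold change of -0.05 ± 0.09 (adjusted p = 0.88, edgeR quasi-likelihood test with Benjamini-Hochberg adjustment over 22331 genes). That estimate is smaller than its standard error. MARCKS is not listed in the authors' deposited table of genes that passed their threshold in siCAMSAP1.

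MARCKSL1 had the lowest values in siRAB3IP and intermediate ones in siCAMSAP1. It was at 85.8 and 73.4 CPM in siRAB3IP, 94.1 and 79.1 CPM in siCAMSAP1 and 119.8 and 101.8 CPM in control. The siRAB3IP and siCAMSAP1 libraries overlapped each other, and all 4 lay below both control libraries. In each of the 3 groups the library numbered replicate 1 was the higher one. The means were 79.6 ± 8.77 CPM in siRAB3IP, 86.6 ± 10.6 CPM in siCAMSAP1 and 111 ± 12.7 CPM in control (SD, n = 2 each).

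For siRAB3IP against control the MARCKSL1 log2 fold change was -0.48 ± 0.11 (SE). Without siRAB3IP replicate 2 it was -0.37, and without control replicate 1 it was -0.35. For siCAMSAP1 against control it was -0.36 ± 0.11 and missed the threshold in edgeR's quasi-likelihood test (adjusted p = 0.193), where the unadjusted p was 0.00684. It passed there with no filter on low counts (edgeR adjusted p = 0.0238). It also passed with the replicate number added to the model (edgeR adjusted p = 0.000681), though no label marks that number as a pairing. The authors' deposited table lists it in that comparison at a log2 fold change of -0.37 ± 0.08 with an adjusted p of 0.000554. DESeq2 on the same 4 libraries gave -0.35 with an adjusted p of 0.137. Without siCAMSAP1 replicate 2 or control replicate 1 the log2 fold change for siCAMSAP1 against control was -0.23 each time. Between siRAB3IP and siCAMSAP1 the difference was -0.12 ± 0.11, close to its standard error.

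**Figure D1:**
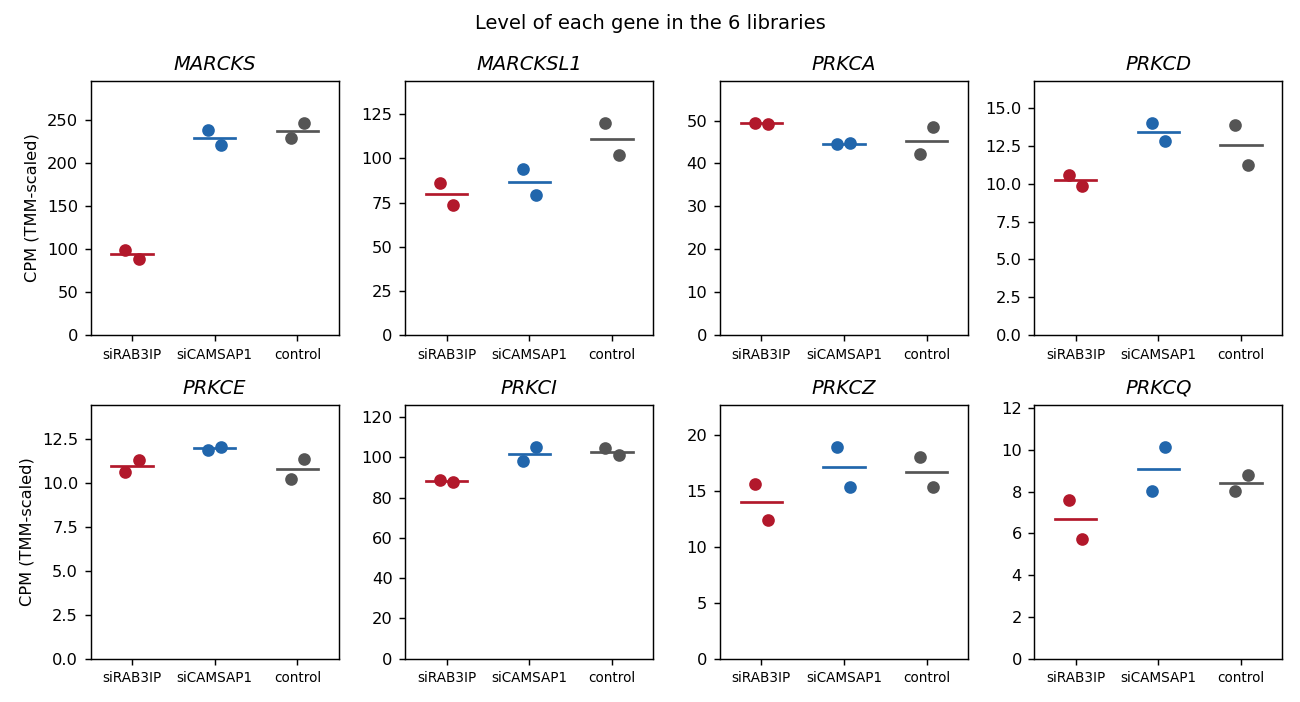
Level of each of the 8 genes in CPM (vertical axis, from 0, scaled by trimmed mean of M values) in the siRAB3IP, siCAMSAP1 and control libraries (horizontal axis). Points are the 2 libraries of a group and lines their mean; MARCKS stands at 88.5 to 99.2 CPM in siRAB3IP, below all other libraries, and MARCKSL1 is highest in the 2 control libraries.

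Per length, the balance between the MARCKS proteins' mRNAs is described here and was not tested between groups. The low siRAB3IP level of MARCKS was known when it was picked. On the scale of CPM per kilobase of exon, MARCKS averaged 22.0 ± 1.78 in siRAB3IP, 53.7 ± 2.84 in siCAMSAP1 and 55.5 ± 2.85 in control, while MARCKSL1 averaged 46.9 ± 5.16 in siRAB3IP, 51.0 ± 6.25 in siCAMSAP1 and 65.2 ± 7.48 in control (SD, n = 2 each). The ratio of MARCKS to MARCKSL1 was 0.460 and 0.479 in the siRAB3IP libraries, 1.005 and 1.109 in the siCAMSAP1 libraries and 0.759 and 0.960 in the control libraries. The 3 groups did not overlap in this ratio, but the 2 control libraries were farther apart than control replicate 2 and siCAMSAP1 replicate 1. MARCKS made up 31.9% ± 0.63 of the pair in siRAB3IP, 51.4% ± 1.75 in siCAMSAP1 and 46.1% ± 4.13 in control. Summed, the pair stood at 68.8 ± 6.94 CPM per kilobase in siRAB3IP, 105 ± 9.09 in siCAMSAP1 and 121 ± 4.63 in control, again without overlap.

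**Figure D2:**
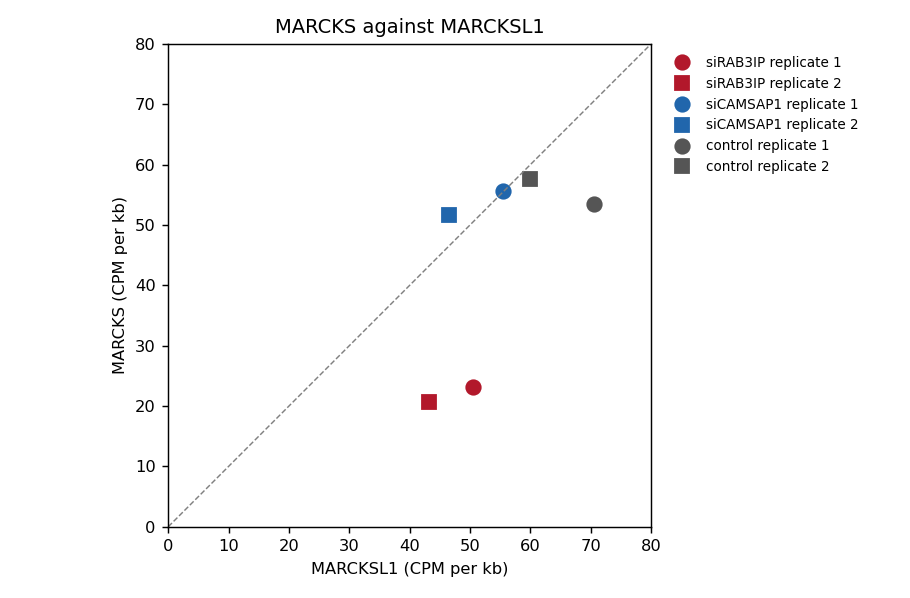
MARCKS (vertical axis) against MARCKSL1 (horizontal axis), both in CPM per kilobase of exon, with 1 point per library and a dashed line of equal level. The 2 siRAB3IP points lie far below the line at a ratio of 0.460 and 0.479, the siCAMSAP1 points on or above it and the control points below it.

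The genes lie on different chromosomes. In hg19 MARCKS is at chr6:114178541-114184648 on the plus strand, with 4273 exon bases, and MARCKSL1 is at chr1:32799433-32801980 on the minus strand, with 1699 exon bases. No exon of either overlaps another gene in the count table. Pseudogenes that could share reads with MARCKSL1 were near 0, with at most 25 fragments in any library for MARCKSL1P1 and at most 5 for MARCKSL1P2. Their promoter windows are shown because both genes were called lower in siRAB3IP. Each runs from 250 bases before to 50 bases after the RefSeq start in GRCh38.p14, 5′ to 3′ on the gene's strand, at chr6:113857095-113857394 (plus) for MARCKS and chr1:32336184-32336483 (minus) for MARCKSL1. Capitals mark GC boxes, read as GGGCGG or its reverse complement CCGCCC.
MARCKS: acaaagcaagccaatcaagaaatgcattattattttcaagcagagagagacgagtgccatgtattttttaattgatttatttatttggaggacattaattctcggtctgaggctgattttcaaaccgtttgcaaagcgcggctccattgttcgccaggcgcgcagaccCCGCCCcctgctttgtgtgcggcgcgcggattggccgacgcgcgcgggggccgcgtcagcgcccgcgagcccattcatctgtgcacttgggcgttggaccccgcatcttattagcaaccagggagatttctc
MARCKSL1: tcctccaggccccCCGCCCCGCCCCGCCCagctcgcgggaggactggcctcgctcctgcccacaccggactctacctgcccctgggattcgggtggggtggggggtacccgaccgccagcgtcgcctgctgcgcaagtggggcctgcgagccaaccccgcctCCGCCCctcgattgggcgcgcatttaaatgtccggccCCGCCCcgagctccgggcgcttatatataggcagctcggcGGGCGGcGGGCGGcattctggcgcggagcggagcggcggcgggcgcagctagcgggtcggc
The MARCKS window held 1 GC box and had 53% G and C, and the MARCKSL1 window held 7 GC boxes, some overlapping or adjoining, and had 75% G and C. CCAAT, searched on both strands with no overlap with the GC boxes, occurred at 2 places in the MARCKS window and at 1 in the MARCKSL1 window. TATAAA on either strand occurred in neither. Only these exact letters were searched, and TATATATA, which stands in the MARCKSL1 window, does not match them. Of all 35116 RefSeq windows of this length, 45% held a GC box, 34.6% held CCAAT and 11.5% held TATAAA, and their median G and C share was 58.7%. These matches describe the letters in a window and are not evidence of binding.

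In the 3′ untranslated regions, the word TGACTTAA and its 7-base parts were searched on the transcript strand in GENCODE 29. The word was picked earlier on these libraries, because genes that carry it were often lower in siRAB3IP, so the shares here are no independent evidence. Among tested genes with an annotated 3′ untranslated region, 124 of 681 carriers of TGACTTAA were called lower in siRAB3IP against control (18.2%), against 870 of 13539 other genes (6.43%). None of the 8 genes held the whole word, which 4.79% of 14220 tested genes do. MARCKS held TGACTTA at 1 place, beginning at base 1108 after the stop codon, and PRKCI held GACTTAA at 1 place, beginning at base 1646. The other 6 genes held neither. Of all tested genes 12.6% held TGACTTA, with 12.8% of these carriers called lower and 6.15% of the others, and 11.4% held GACTTAA, with 13.3% and 6.19%. Both sets of carriers include every carrier of the whole word, so these shares are not those of genes with a 7-base part alone. Carriers of a word have longer regions to carry it in, and the part of that length was not tested. Both sites are shown with 11 bases on each side, the word in capitals, from GRCh38 at chr6:113861676-113861704 (plus) for MARCKS and chr3:170304762-170304790 (plus) for PRKCI.
MARCKS: tttgaccaattTGACTTAgagatggaatg
PRKCI: taatgaaaaggGACTTAAaaagtaaacat
The sequences of the siRNAs were not used here.

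None of the 6 PKC isoforms passed the threshold in the 3 comparisons in the fit of 22331 genes described here. When only genes averaging 5 CPM or more were tested, PRKCI passed in siRAB3IP against control, at a log2 fold change of -0.24. With the replicate number added to the model, PRKCD, PRKCI and PRKCZ passed in siRAB3IP against control. In that fit they and PRKCQ passed in siRAB3IP against siCAMSAP1. No label marks the replicate number as a pairing. Across all 8 genes, 2 were called in siRAB3IP against control (MARCKS and MARCKSL1, both lower), 0 in siCAMSAP1 against control and 1 in siRAB3IP against siCAMSAP1 (MARCKS, lower). In the same fit 11.6% of the 22331 genes were called in siRAB3IP against control, 5.24% as lower. The shares were 0.94% in siCAMSAP1 against control, 0.493% as lower, and 8.85% in siRAB3IP against siCAMSAP1, 3.96% as lower. Because the siRAB3IP values chose the genes, nothing is read from their counts in the siRAB3IP comparisons. Beside the 0 in siCAMSAP1 against control, edgeR gave 1 of the 8 genes (MARCKSL1) an unadjusted p under 0.05, and DESeq2 and limma-voom each called 0. The share of all tested genes at that unadjusted p was not computed in the tables' grouping, so nothing is read from this count. The median log2 fold change over the 8 genes was -0.28 in siRAB3IP against control, 0.01 in siCAMSAP1 against control and -0.25 in siRAB3IP against siCAMSAP1, where the medians over all tested genes were -0.01, 0.00 and -0.01. Both comparisons with control share the 2 control libraries, and both with siRAB3IP share its 2 libraries.

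PRKCI, the atypical isoform that pairs with PARD6 proteins at cell junctions, was the most abundant PKC. It was at 88.6 and 87.9 CPM in siRAB3IP, 98.1 and 105.0 CPM in siCAMSAP1 and 104.6 and 101.0 CPM in control. Both siRAB3IP libraries lay below the other 4. The log2 fold change was -0.22 ± 0.08 (SE) for siRAB3IP against control and -0.20 ± 0.08 for siRAB3IP against siCAMSAP1. For siCAMSAP1 against control it was -0.02 ± 0.08 (edgeR adjusted p = 0.959).

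PRKCZ, the other atypical isoform, was at 15.7 and 12.4 CPM in siRAB3IP, 18.9 and 15.4 CPM in siCAMSAP1 and 18.1 and 15.4 CPM in control. All 3 groups overlapped, and in each the library numbered replicate 1 was the higher one, as for MARCKSL1. The log2 fold changes were -0.25 ± 0.14 (SE) for siRAB3IP against control, 0.04 ± 0.14 for siCAMSAP1 against control (edgeR adjusted p = 0.954) and -0.29 ± 0.14 for siRAB3IP against siCAMSAP1. The first of these was -0.43 without siRAB3IP replicate 1, -0.091 without siRAB3IP replicate 2 and -0.13 without control replicate 1. The siRAB3IP against siCAMSAP1 value was -0.47 without siRAB3IP replicate 1, -0.13 without siRAB3IP replicate 2 and -0.12 without siCAMSAP1 replicate 1. PRKCZ is the only one of the 8 whose exons overlap other genes in the count table. All 3 lie on the opposite strand, FAAP20 over 7.73% of its exon bases, ENSG00000271806 over 3.48% and PRKCZ-AS1 over 1.09%. Counting did not use strand and dropped fragments that met more than 1 gene, so the PRKCZ count leaves out those stretches.

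PRKCA, the conventional isoform and the classical receptor of phorbol esters, was at 49.3 and 49.3 CPM in siRAB3IP, 44.5 and 44.7 CPM in siCAMSAP1 and 42.2 and 48.4 CPM in control. Both siRAB3IP libraries lay above the rest, within 1 CPM of control replicate 2, and the siCAMSAP1 libraries fell between the 2 control libraries. The log2 fold change was 0.12 ± 0.09 (SE) for siRAB3IP against control, 0.14 ± 0.09 for siRAB3IP against siCAMSAP1 and -0.02 ± 0.09 for siCAMSAP1 against control (edgeR adjusted p = 0.957). The siRAB3IP against control value was 0.030 without control replicate 1 and 0.23 without control replicate 2.

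Of the isoforms that need diacylglycerol alone, PRKCD is a kinase linked to apoptosis. It was at 10.6 and 9.88 CPM in siRAB3IP, 13.997 and 12.8 CPM in siCAMSAP1 and 13.9 and 11.3 CPM in control. PRKCQ, best known from T cell receptor signalling, was at 7.62 and 5.75 CPM in siRAB3IP, 8.02 and 10.1 CPM in siCAMSAP1 and 8.03 and 8.81 CPM in control. For both genes the siRAB3IP libraries were the lowest and did not overlap either other group. The share of all tested genes with such separation was not computed, so nothing is read from it for any gene described here. Their log2 fold changes against control were -0.30 ± 0.13 (SE) for PRKCD and -0.33 ± 0.17 for PRKCQ in siRAB3IP. Without control replicate 1 that of PRKCD was -0.14. Without siRAB3IP replicate 1 that of PRKCQ was -0.55, and without siRAB3IP replicate 2 it was -0.14. In siCAMSAP1 they were 0.09 ± 0.13 (edgeR adjusted p = 0.839) and 0.11 ± 0.16 (0.859). Between siRAB3IP and siCAMSAP1 the estimates were the farthest from 0 among the 6 PKC isoforms, -0.39 ± 0.13 for PRKCD and -0.44 ± 0.17 for PRKCQ, the PRKCQ value being -0.25 without siRAB3IP replicate 2 and -0.26 without siCAMSAP1 replicate 2.

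PRKCE, an isoform that binds actin, was at 10.7 and 11.3 CPM in siRAB3IP, 11.9 and 12.1 CPM in siCAMSAP1 and 10.3 and 11.4 CPM in control. The siRAB3IP values lay inside the control range, and the siCAMSAP1 values lay above both other groups. Its log2 fold change was 0.02 ± 0.12 (SE) for siRAB3IP against control, 0.14 ± 0.12 for siCAMSAP1 against control (edgeR adjusted p = 0.694) and -0.13 ± 0.12 for siRAB3IP against siCAMSAP1. A p that misses the threshold with 2 libraries a group does not show that a level was the same.

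**Figure D3:**
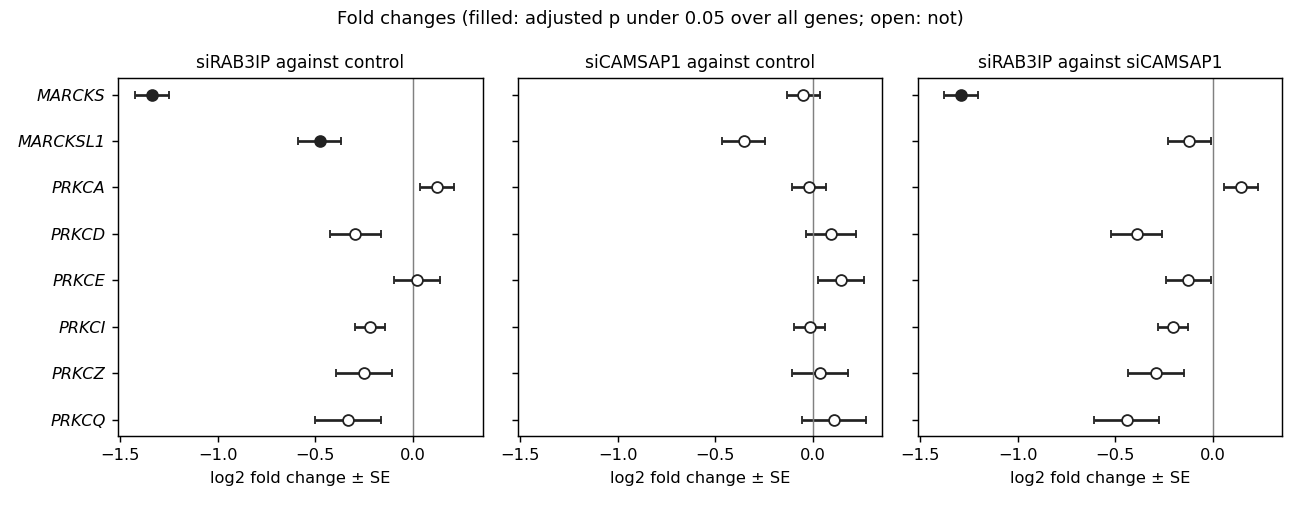
Log2 fold change of each gene (horizontal axis) with its standard error (bars) in the 3 comparisons, from the edgeR fit over all genes; filled points passed an adjusted p under 0.05 over all genes tested. MARCKS stands at -1.34 and -1.29 in the 2 siRAB3IP comparisons and at -0.05 in siCAMSAP1 against control; 6 of the 8 estimates lie below 0 in siRAB3IP against control, and 4 of 8 in siCAMSAP1 against control.

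Ordered by CPM per kilobase of exon, the control libraries ran MARCKSL1 (65.2), MARCKS (55.5), PRKCI (17.6), PRKCA (4.06), PRKCD (3.70), PRKCQ (2.56), PRKCZ (2.19) and PRKCE (1.09), as group means. Only PRKCA and PRKCD overlapped among neighbours in that order. The length is all exon bases annotated for a gene, not the length of the transcripts expressed. For PRKCZ it includes the stretches left uncounted, which can lower its value. In siCAMSAP1 the order put MARCKS (53.7) before MARCKSL1 (51.0), and this pair, PRKCA and PRKCD, and PRKCQ and PRKCZ overlapped. In siRAB3IP it was the control order, and only PRKCQ (2.03) and PRKCZ (1.84) overlapped, with PRKCA (4.42) clear of PRKCD (3.01).

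A set of 8 PKC isoforms, the 6 above with PRKCB and PRKCH, summed to 29.6 and 28.4 CPM per kilobase in siRAB3IP, 32.3 and 33.5 in siCAMSAP1 and 33.1 and 32.5 in control. Both siRAB3IP sums were below the other 4. PRKCI supplied more than any other of the 8, 52.1% ± 1.25 of the sum in siRAB3IP, 52.8% ± 1.15 in siCAMSAP1 and 53.6% ± 0.64 in control (SD, n = 2 each), with the siCAMSAP1 range overlapping both other groups. PRKCA supplied 15.0% and 15.6% in the siRAB3IP libraries, 12.4% and 11.97% in the siCAMSAP1 libraries and 11.4% and 13.3% in the control libraries. PRKCB, another conventional isoform, stayed under 0.6% of the sum in every library. PRKCD, PRKCE, PRKCH and PRKCQ are the isoforms that need diacylglycerol alone. Together they made up 25.8% ± 0.72 in siRAB3IP, 27.9% ± 0.34 in siCAMSAP1 and 27.0% ± 0.08 in control. The atypical pair made up 58.5% ± 0.38 in siRAB3IP, 59.7% ± 0.04 in siCAMSAP1 and 60.3% ± 1.30 in control.

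**Figure D4:**
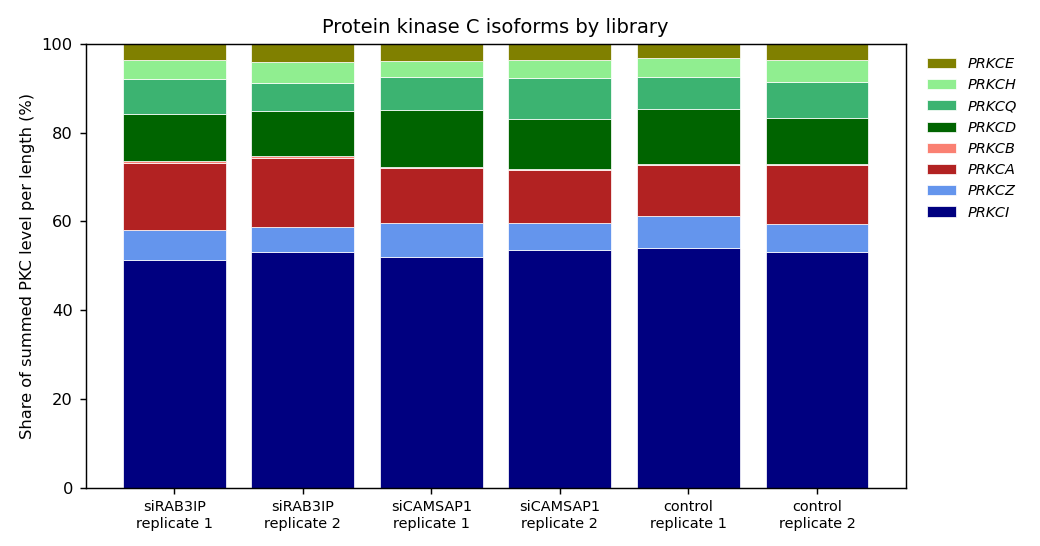
Share of each of 8 PKC isoforms (stacked, in percent of their summed CPM per kilobase of exon, vertical axis) in each library (horizontal axis). PRKCI fills 51.2% to 54.1% of every bar, and the PRKCA band is widest in the 2 siRAB3IP libraries, at 15.0% and 15.6%.

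Around these genes, 7 lists of the pathway held 73 genes, of which 71 were in the count table and 67 were tested. The lists were chosen with earlier results of these data known, and most genes named from them were named for being called. Their siRAB3IP values are therefore a description, without p-values for single genes, and are no independent evidence. In siRAB3IP against control edgeR called 14 of the 67, 7 higher and 7 lower, where 11.6% of all tested genes were called, 6.39% as higher and 5.24% as lower. Those 2 shares are the background for the counts of each list below. With upper-quartile scaling the count was 2 higher and 7 lower. Leaving out either siRAB3IP library kept 2 of the 14 calls, leaving out control replicate 1 kept 8 and leaving out control replicate 2 kept 5, in fits where that group had 1 library, assumed to vary like the others. The log2 fold change stayed within 1.5 times its value for 9 of the 14 genes in all 6 fits that left out a library, and moved further for PHLPP2, PARD6A, GAP43, BASP1 and ADD3. SQSTM1 was the 1 gene called in all 6. In siCAMSAP1 against control edgeR called 0 of the 67 genes, where 0.94% of all tested genes were called. DESeq2 called 3 of the 67 and limma-voom 0. At an unadjusted p under 0.05 in edgeR there were 14. The share of all tested genes at that unadjusted p was not computed in the tables' grouping. Nothing is therefore read from such counts here or below.

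Of 8 other PKC and PKC-related kinases (PRKCB, PRKCH, the PRKD and the PKN kinases), edgeR called 0 in any comparison, with 1 at an unadjusted p under 0.05 in siRAB3IP against control, 0 in siCAMSAP1 against control and 1 in siRAB3IP against siCAMSAP1. DESeq2 and limma-voom also called 0 of them. Their median log2 fold change against control was -0.03 in siRAB3IP and -0.002 in siCAMSAP1, and the medians over all tested genes given above (-0.01 and 0.00) are the comparison for each list below. PRKCB, at 1.75 and 1.25 CPM in siRAB3IP, 0.75 and 0.74 CPM in siCAMSAP1 and 0.83 and 0.94 CPM in control, did not overlap between siRAB3IP and the other groups; it is named after its values were seen.

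Phospholipase C isozymes make the diacylglycerol that activates PKC by cutting PIP2. Of 12 tested, 3 were called lower in siRAB3IP against control and 0 higher. The log2 estimates above 0, none called, were 1.08 ± 0.35 (SE) for PLCH2, which averaged 0.78 CPM, and 0.37 for PLCE1. The rest above 0 were 0.15 for PLCD4, 0.12 for PLCB4 and 0.04 for PLCD3. These genes are named after their values were seen. The list's median log2 fold change against control was -0.09 in siRAB3IP and -0.03 in siCAMSAP1. PLCD1 had a log2 fold change of -0.91 ± 0.21 (SE). It was at 1.96 and 1.86 CPM in siRAB3IP, 3.38 and 2.82 CPM in siCAMSAP1 and 3.13 and 4.04 CPM in control. PLCH1 (-0.44 ± 0.12) and PLCB3 (-0.41 ± 0.08) were the others called lower. PLCB3, the isozyme driven by Gq-coupled receptors, was at 40.9 and 41.0 CPM in siRAB3IP, 67.7 and 61.4 CPM in siCAMSAP1 and 54.0 and 54.8 CPM in control. All 3 groups were apart for PLCB3. The calls of PLCB3, PLCD1 and PLCH1 were each lost without either siRAB3IP library, and those of PLCD1 and PLCH1 also without control replicate 2. Without siRAB3IP replicate 1 or 2 the log2 fold changes were -0.41 each time for PLCB3, -0.95 and -0.87 for PLCD1 and -0.46 and -0.42 for PLCH1.

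Diacylglycerol kinases end the signal by converting diacylglycerol to phosphatidic acid. Of 7 tested, DGKA was called lower (-0.66 ± 0.15, log2 ± SE) and DGKG higher (1.42 ± 0.36) in siRAB3IP against control. DGKA was at 5.79 and 5.51 CPM in siRAB3IP, 7.55 and 8.36 CPM in siCAMSAP1 and 8.05 and 9.75 CPM in control. DGKG, named after its values were seen because it averages under 1 CPM, was at 1.64 and 1.36 CPM in siRAB3IP, 0.72 and 0.41 CPM in siCAMSAP1 and 0.46 and 0.65 CPM in control. Both siRAB3IP libraries stood apart from the other 4 for both genes. The median log2 fold change of the 7 kinases was 0.21 in siRAB3IP and -0.03 in siCAMSAP1 against control. Without siRAB3IP replicate 1 or 2 the log2 fold changes were -0.69 and -0.62 for DGKA and 1.28 and 1.55 for DGKG. Each call was lost in those fits, DGKA's also without control replicate 2 and DGKG's without control replicate 1.

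For PIP2 itself, 2 of 10 genes were called higher in siRAB3IP against control. The median log2 fold change over the 10 was 0.10 in siRAB3IP and 0.01 in siCAMSAP1 against control. PIP4K2C, a kinase that makes PIP2 by its minor route, had a log2 fold change of 0.29 ± 0.09 (SE) and OCRL, the PIP2 phosphatase mutated in Lowe syndrome, 0.27 ± 0.08. Both calls were lost whichever of the 6 libraries was left out, with log2 fold changes of 0.23 to 0.36 for PIP4K2C and 0.24 to 0.30 for OCRL in those fits. Of 10 tested scaffolds, activating kinases, phosphatases and PKC-regulated inhibitors, 2 were called higher in siRAB3IP against control. Their median log2 fold change against control was 0.19 in siRAB3IP and 0.16 in siCAMSAP1. SQSTM1, the p62 scaffold that binds atypical PKC and an autophagy receptor, was at 267.7 and 263.9 CPM in siRAB3IP, 236.6 and 196.5 CPM in siCAMSAP1 and 192.2 and 144.9 CPM in control. Its log2 fold change was 0.66 ± 0.12 (SE), and the value ranged over 0.47 to 0.88 across the alternatives in the tables' grouping. The opposite-strand gene MRNIP covers 20.6% of its exon bases, which unstranded counting drops. PHLPP2, a phosphatase that acts on PKC and AKT, had 0.32 ± 0.09, a call lost when siRAB3IP replicate 1 (0.21) or either control library (0.34 without replicate 1, 0.31 without replicate 2) was left out.

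In the polarity complex of atypical PKC, 1 of 8 genes was called higher and 1 lower in siRAB3IP against control. The median log2 fold change against control was 0.08 in siRAB3IP and 0.12 in siCAMSAP1. PARD6A, the adaptor that binds PRKCI and PRKCZ, was at 3.38 and 5.11 CPM in siRAB3IP, 3.14 and 2.72 CPM in siCAMSAP1 and 2.54 and 2.49 CPM in control (log2 0.75 ± 0.22 SE). LLGL1, a PKC substrate kept off the apical membrane, was at 75.7 and 72.8 CPM in siRAB3IP, 103.8 and 88.4 CPM in siCAMSAP1 and 100.7 and 96.3 CPM in control (-0.41 ± 0.09). The PARD6A call was lost without siRAB3IP replicate 2, at a log2 fold change of 0.43, and without control replicate 1 or 2, at 0.77 and 0.74. The LLGL1 call was lost without siRAB3IP replicate 1 or 2, at -0.44 and -0.38.

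Among 12 other membrane- or actin-bound PKC substrates and calmodulin genes, 1 was called higher and 2 lower in siRAB3IP against control. Their median log2 fold change against control was -0.12 in siRAB3IP and -0.03 in siCAMSAP1. GAP43 and BASP1 share with MARCKS a lipid anchor and binding to PIP2-rich membrane. GAP43 was at 5.87 and 6.55 CPM in siRAB3IP, 4.49 and 3.76 CPM in siCAMSAP1 and 2.84 and 4.65 CPM in control (log2 0.72 ± 0.21 SE). BASP1 was at 82.2 and 96.0 CPM in siRAB3IP, 97.9 and 105.4 CPM in siCAMSAP1 and 103.4 and 123.4 CPM in control (-0.35 ± 0.10). GAP43 and BASP1 thus had estimates of opposite sign. ADD3, an adducin that caps actin, was at 88.2 and 99.8 CPM in siRAB3IP, 89.7 and 96.5 CPM in siCAMSAP1 and 111.8 and 133.6 CPM in control (-0.38 ± 0.10). All 3 calls were lost without each siRAB3IP library, that of GAP43 also without control replicate 1 and those of BASP1 and ADD3 without control replicate 2. Without siRAB3IP replicate 1 or 2 the log2 fold changes were 0.80 and 0.65 for GAP43, -0.24 and -0.46 for BASP1 and -0.30 and -0.47 for ADD3. GAP43 was at 0.42 without control replicate 1 and 1.13 without control replicate 2, where BASP1 was at -0.21 and ADD3 at -0.25.

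In siRAB3IP against siCAMSAP1, edgeR called 5 of the 67 genes, named after their values were seen. PLCB3 (-0.66 ± 0.08, log2 ± SE), LLGL2 (-0.52 ± 0.09), AKAP12 (-0.51 ± 0.08), a scaffold for PKC, and LLGL1 (-0.37 ± 0.09) were lower, and DGKG (1.41 ± 0.36) was higher. The background share for this comparison was the 8.85% given above, 3.96% as lower and 4.89% as higher. LLGL2 was at 28.6 and 32.8 CPM in siRAB3IP, 44.2 and 44.0 CPM in siCAMSAP1 and 33.2 and 33.0 CPM in control, so siCAMSAP1 was the group apart. AKAP12 was at 342.6 and 344.5 CPM in siRAB3IP, 471.6 and 506.5 CPM in siCAMSAP1 and 381.7 and 403.7 CPM in control.

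**Figure D5:**
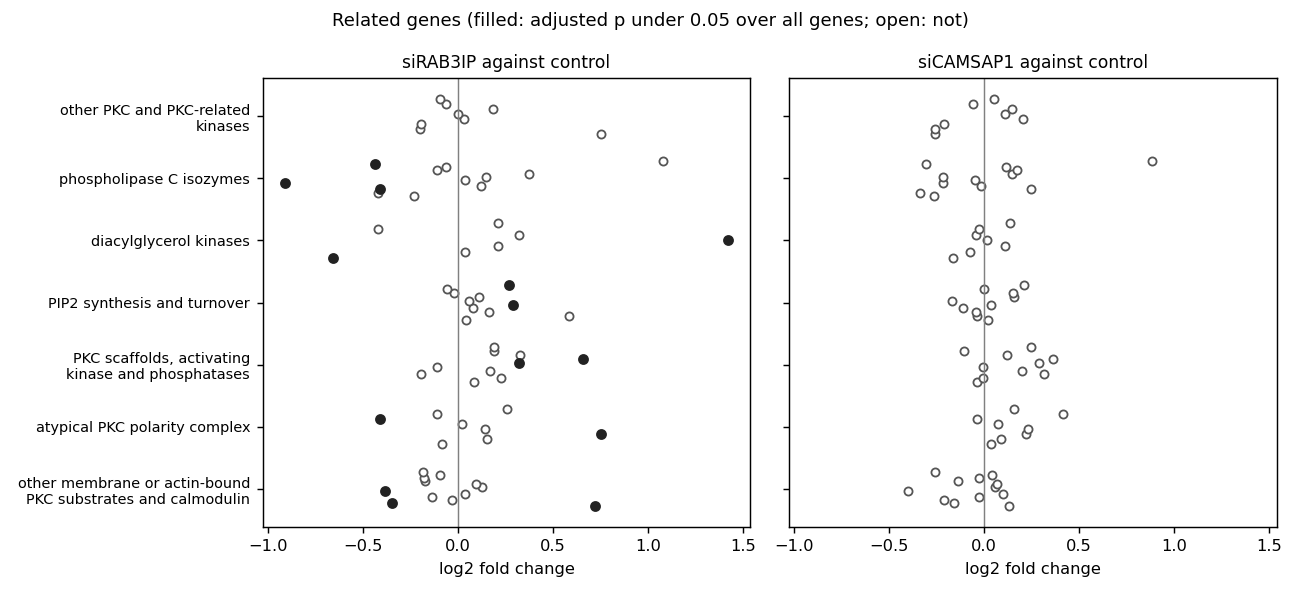
Log2 fold change (horizontal axis) of the 67 tested genes in the 7 pathway lists (rows), against control, in siRAB3IP (left) and siCAMSAP1 (right); each point is a gene and filled points passed an adjusted p under 0.05 over all genes tested. Filled points are 14 on the left, 7 on each side of 0, and 0 on the right.

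The genes whose profile over the 6 libraries was nearest to that of MARCKS, by Euclidean distance of centred log2 CPM among 11783 other genes averaging 5 CPM or more, were CCND1, RASSF2, CTSV, TMEM14C and MRC2, at distances of 0.24, 0.36, 0.37, 0.38 and 0.39. CCND1, a cyclin of early cell cycle, was at 50.7 and 51.9 CPM in siRAB3IP, 113.6 and 115.8 CPM in siCAMSAP1 and 110.9 and 121.7 CPM in control. TMEM14C, a mitochondrial protein of haem synthesis, was at 34.7 and 32.3 CPM in siRAB3IP, 76.6 and 78.7 CPM in siCAMSAP1 and 70.5 and 65.9 CPM in control. Like MARCKS, both had 2 low siRAB3IP libraries and 4 higher ones. The genes were chosen for that likeness, so the shared pattern follows from the choice and is no separate result. RASSF2, a Ras-association protein, CTSV, a lysosomal protease, and MRC2, a collagen receptor, averaged 5.995, 8.46 and 4.59 CPM in siRAB3IP, 15.2, 17.3 and 9.96 CPM in siCAMSAP1 and 16.2, 18.1 and 9.86 CPM in control. For PRKCA the nearest were WIPF2, AMOTL1, LINC00205, STIM1 and PDPR, at distances of 0.03 to 0.07. All 5 had log2 fold changes between 0.08 and 0.15 for siRAB3IP against control, a nearly level profile that many genes can share.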

How the data were processed

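Poly(A) RNA-seq of 6 HEK293 libraries was used. The deposited counts are fragments per gene from featureCounts 1.6.0 over hg19 exons, paired and without strand, per the file header; STAR and DESeq2 are named in the submitters' processing notes with no version. The authors' deposited tables give normalized signal (counts divided by 1 size factor per library), log2 fold changes with standard errors, Wald scores and p-values for 2192 genes in siRAB3IP and 474 in siCAMSAP1 that passed their threshold.

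Here counts were scaled by trimmed mean of M values and tested with edgeR 4.0.16 (quasi-likelihood, filterByExpr, 1 model of 3 groups, 3 residual degrees of freedom), with Benjamini-Hochberg adjustment over 22331 genes and a threshold of 0.05. The procedure was tested on simulated data, in 3 draws with 200 changed genes each. It recovered 40.3% of 1.5-fold changes and 66.3% of 2-fold changes, and 5.6% of its calls were genes left unchanged. CPM use the scaled library sizes. CPM per kilobase use the exon length in the count table. A count of 3 fragments equals 0.0757 to 0.0803 CPM, which covers counting error only. Libraries of a group differed by more than counting noise, so none was merged. DESeq2 1.42.0, limma 3.58.1 (voom), other scalings and filters, a replicate block, leaving out each library and the records' grouping were the alternatives, and DESeq2 on 4 libraries was added after seeing the data. Promoters are from RefSeq (GRCh38.p14), where all 8 genes matched by symbol. Of 63677 genes, 52560 have a symbol, 34 of them from the deposited tables alone. DGKK and PIP4K2B were not matched in the count table.

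The members, lists and named genes were chosen with earlier results of these data known. Named genes are the 8 members, up to 4 called genes a list and comparison with control averaging 1 CPM or more, and the 5 nearest profiles to MARCKS and PRKCA. Some genes of the lists are not reported here. Figures were drawn with matplotlib 3.10.9.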

Additional observations from a re-analysis of the deposited data

How the results depend on the processing

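The MARCKS log2 fold change stayed between -1.42 and -1.26 for siRAB3IP against control and between -1.38 and -1.21 for siRAB3IP against siCAMSAP1 in the tables' grouping. Over 360 alternative fold changes of the 8 genes in the tables' grouping, 335 kept direction and side of the threshold, 10 newly passed, 2 no longer passed and 13 turned sign. With PRKCE at upper-quartile scaling (-0.0074, siRAB3IP against control) as the exception, the sign turned only where 1 library was left out. The log2 fold change then ranged over -0.051 to 0.0997 for PRKCE in siRAB3IP against control and -0.240 to 0.017 for MARCKSL1 in siRAB3IP against siCAMSAP1, and in siCAMSAP1 against control over -0.11 to 0.0045 for MARCKS, -0.114 to 0.079 for PRKCA, -0.055 to 0.256 for PRKCD, -0.067 to 0.025 for PRKCI, -0.128 to 0.181 for PRKCZ and -0.070 to 0.262 for PRKCQ.

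Leaving out 1 library gave 1034 to 2491 called genes, 1 to 2 of the 8 members and 2 to 12 related genes in siRAB3IP against control, 67 to 210, 0 and 0 to 2 in siCAMSAP1 against control, and 620 to 2296, 1 and 3 to 9 in siRAB3IP against siCAMSAP1. MARCKSL1 was the member not called in the first comparison without siRAB3IP replicate 2 or control replicate 1. The number of called genes fell by over 1.5 times without either siRAB3IP library or control replicate 2 in the first, and without either siCAMSAP1 library or control replicate 2 in the second, and without any siRAB3IP or siCAMSAP1 library in the third.

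A replicate block gave 5371, 1408 and 4630 called genes in siRAB3IP against control, siCAMSAP1 against control and siRAB3IP against siCAMSAP1, with 5, 1 and 5 members and 28, 10 and 18 related genes. The members newly past the threshold were PRKCD, PRKCI and PRKCZ in the first, MARCKSL1 in the second (-0.36, edgeR adjusted p = 0.000681), and PRKCD, PRKCI, PRKCZ and PRKCQ in the third. Only 2 replicate numbers exist, deviations of same-numbered libraries correlated at 0.110 to 0.150, and no label says that a number marks a shared culture, so the number is not taken as a pairing.

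With no filter on low counts, siCAMSAP1 against control gave 560 called genes, 1 member and 4 related genes, and siRAB3IP against siCAMSAP1 gave 12 related genes. DESeq2 called 366 genes and 3 related ones in siCAMSAP1 against control, and 3 related ones when fitted on 4 libraries. For siRAB3IP against control the related genes numbered 9 with upper-quartile scaling, with a minimum mean of 5 CPM and with DESeq2 on 4 libraries. Of 205 alternative values of the 14 called related genes in the tables' grouping 63 no longer passed and none turned sign. The cause was not tested.

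With groups by the sample records, edgeR called 0 genes, members and related genes in each comparison, with 350 to 471 genes at an unadjusted p under 0.05 and 0 to 1 by DESeq2. The grouping mixes libraries of different tables. The MARCKS log2 fold change was then 0.56 for siRAB3IP against control and 0.65 for siRAB3IP against siCAMSAP1. Other reversals were PRKCD 0.0438, PRKCI 0.0437, PRKCZ 0.026, PRKCQ 0.11, PLCB3 0.37, PLCD1 0.54, PLCH1 0.16, DGKA 0.32, DGKG -0.61, PIP4K2C -0.21, OCRL -0.065, PHLPP2 -0.12, SQSTM1 -0.27, PARD6A -0.073, LLGL1 0.18, BASP1 0.25 and ADD3 0.16 in siRAB3IP against control, PRKCA 0.039, PRKCD -0.11 and PRKCZ -0.28 in siCAMSAP1 against control, and MARCKSL1 0.36, PRKCA -0.017, PRKCD 0.15, PRKCI 0.046, PRKCZ 0.31 and PRKCQ 0.082 in siRAB3IP against siCAMSAP1.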
